A study of Homo sapiens with 6 samples.

Results

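The D-type cyclins, their kinases CDK4 and CDK6, the INK4 inhibitors and the genes acting with them on the retinoblastoma protein were examined in 3 established lines from human glioblastoma: A172, T98G and U87MG. The 10 genes were chosen by symbol: CCND1, CCND2, CCND3, CDK4, CDK6, CDKN2A, CDKN2B, CDKN2C, CDKN1B and RB1. Of these, 9 had a probe set of their own among the 18417 genes that could be named, 1 probe set each. CDKN2C was not analysed here. Of the 9, 8 passed the filter on dim genes and entered the tests, and CCND2 did not.

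Cells of every line received either pre-miR338-5p (miR338-5p in the labels, and below, the mimic) or a negative control and were harvested 24 hours later. There was 1 array per line and transfection, hence 3 control and 3 mimic arrays. The series set out to find targets of this microRNA. No untransfected culture was analysed here. Values are RMA log2 expression from Affymetrix Human Gene 1.0 ST arrays, so a difference of 1 is a doubling. The 2 arrays of a line carried different transfections, and the labels do not say whether they were split from 1 parent culture. The p-values of the mimic comparison therefore weigh the mean difference against how far the mimic minus control difference varied between these 3 lines. Those of the line comparisons weigh line differences against the same variation, with the 2 differently transfected arrays of a line standing in for replicates. Spread between repeated cultures of a line under 1 transfection was not measured. With 1 array per line and transfection, technical spread is part of this variation and cannot be separated from it.

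D-type cyclins are made when growth factors act on a cell, and they bind and activate CDK4 and CDK6. The active kinases phosphorylate RB1, which then releases E2F transcription factors and lets the cell enter S phase. INK4 proteins bind CDK4 and CDK6 and keep the cyclins off, while CDKN1B (p27) holds CDK2 complexes in check and is itself taken up by cyclin D complexes. This pathway is altered in most glioblastomas: CDKN2A and CDKN2B lie side by side and are often lost together with their neighbour MTAP, CDKN2C and RB1 are lost in a smaller share of tumours, and CDK4, CDK6 or CCND2 may be amplified. Copy number was not measured in these data.

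The agent itself is shown first, since it defines the groups. The mature strand lies at chr17:81125923-81125944 (minus strand, GRCh38.p14). The capitals mark the seed, bases 2 to 8, with which a microRNA finds its messages.
hsa-miR-338-5p: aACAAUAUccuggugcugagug
A message with a full match to this seed carries AUAUUGU. The 3' UTRs of the 10 genes were not analysed here, so nothing is said on whether any of them holds such a match.

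The medians of the 6 arrays ran from 5.06 to 5.14. The 2 arrays of a line correlated at 0.992 or more (Pearson's r across probe sets), while between lines r was at most 0.962. Of 10 markers of astrocytes and glioma cells, VIM (11.9 to 12.6) and CD44 (11.5 to 11.9) stood high on every array. GFAP, the defining astrocyte filament, stood at 5.07 to 5.39, and S100B and AQP4 lay below the filter, a minimum mean of 4.28. SOX2 (4.03 to 4.66) and OLIG2 (4.06 to 4.96) lay around that level, and SOX9 stood at 6.54 to 7.36. NES read 7.15 to 7.29 in A172 and 5.16 to 5.51 in the other lines. SLC1A3 ran from 3.85 in A172 to 8.02 in U87MG. Of 4 leukocyte markers, PTPRC and CD3E were below the filter and CD14 lay at it (4.02 to 4.66), while CD68 stood higher (8.29 to 10.4). Of 4 neuronal markers TUBB3 had no value here, and the 3 measured all passed, with RBFOX3 and SYP between 4.23 and 5.28 and SNAP25 from 4.69 in A172 to 8.11 in U87MG. Of the endothelial markers, PECAM1 and VWF were below the filter and CDH5 lay near it (4.17 to 4.54). What part other cell types have in the results was not tested.

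For most of the genes the lines lay farther apart than mimic and control did. U87MG had the most CCND1 and the least CDK6, and T98G had the least CCND1 and the most CDK6. A172 had the least CDKN1B and the most RB1. CDKN2A and CCND2 read low in all 3 lines, near the filter level of 4.28. Mimic and control differed past the threshold in none of the 8 tested genes, and CCND3, which was higher with the mimic in each line, came closest.

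**Figure D1:**
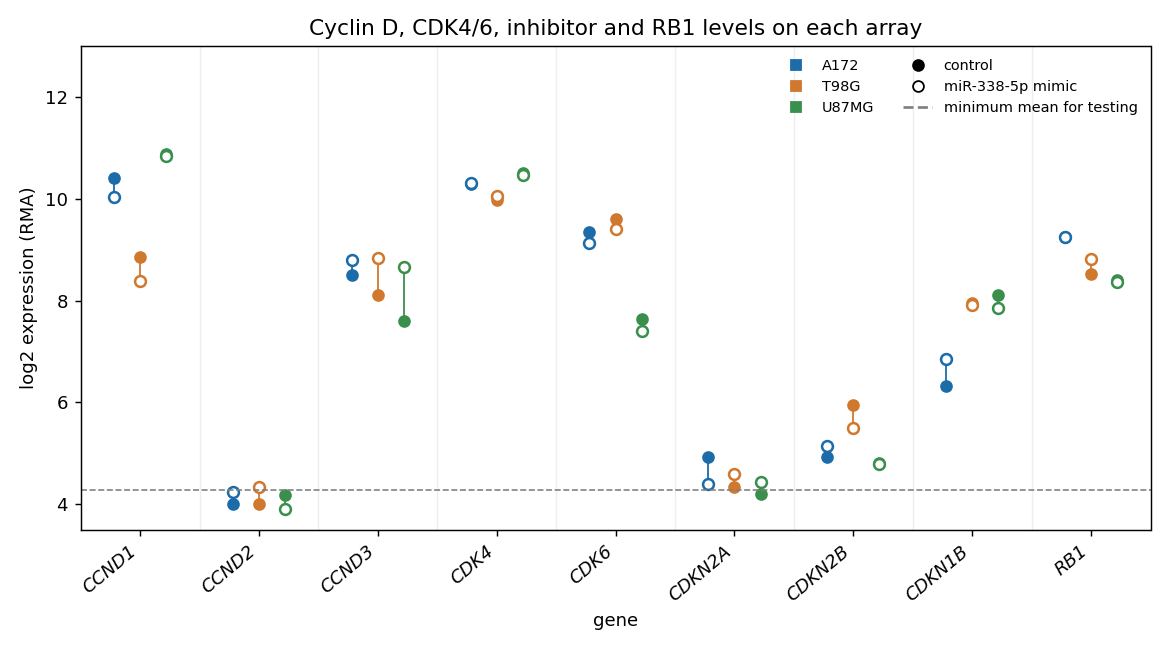
Log2 expression (RMA) of the 9 measured genes on each of the 6 arrays: filled points are control, open points mimic, colours are lines, and the dashed line is the minimum mean of 4.28 for testing. Levels are to be compared within a gene. CCND1 and CDK6 separate the lines most, CCND3 shows the widest gaps between filled and open points in T98G and U87MG, and CCND2 lies around the dashed line on every array.

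Among the cyclins, CCND1 (cyclin D1) read 10.41 (A172), 8.86 (T98G) and 10.88 (U87MG) on the control arrays. With the mimic it was at 10.03, 8.39 and 10.85 in the same order. The 3 lines did not overlap on either kind of array, with U87MG above A172 and A172 above T98G. In limma's fit over all 13812 tested genes, with the transfection as an additive term, U87MG exceeded T98G by 2.24 (SE 0.12, adjusted p = 2e-05), or 4.72-fold. A172 exceeded T98G 3.02-fold and U87MG exceeded A172 by 0.64 (adjusted p = 0.00479).

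CCND3 (cyclin D3) was less different between lines. On the control arrays it fell from 8.50 in A172 through 8.12 in T98G to 7.59 in U87MG, and on the mimic arrays it read 8.79, 8.83 and 8.66. The lines were therefore ordered on the control arrays and close together on the mimic arrays. The F test over the lines did not call it (adjusted p = 0.0799). Only U87MG minus A172 passed as a pair in limma's fit, at -0.52 (adjusted p = 0.0433), and this was lost without the A172 control array (-0.22, adjusted p = 0.33) or the U87MG control array (-0.24, adjusted p = 0.327). The same pair did not pass in 2 further alternatives, with no filter (adjusted p = 0.0617) and with no transfection term (adjusted p = 0.271). U87MG minus T98G was -0.35 (adjusted p = 0.153) and passed without the U87MG mimic array alone (-0.63, adjusted p = 0.0421).

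CCND2 (cyclin D2), the third member of the family, stood at 4.0, 4.01 and 4.17 on the control arrays of A172, T98G and U87MG and at 4.25, 4.34 and 3.91 on the mimic arrays. Its mean of 4.11 was below the filter. As a guide to what a silent gene reads on this array, the means of 341 olfactory receptor genes had a median of 2.97 and a 95th percentile of 4.41, although probe sets differ in their own brightness. No array put CCND2 above that percentile. With no filter its lines did not differ past the threshold (F test, adjusted p = 0.763 in limma).

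Of the 2 kinases, CDK4 varied little. It was at 10.29, 9.98 and 10.50 on the control arrays of A172, T98G and U87MG, and at 10.32, 10.05 and 10.46 on the mimic arrays. T98G was lowest on both kinds of array, and U87MG exceeded it by 0.47 (SE 0.09, adjusted p = 0.00511 in limma), or 1.38-fold. T98G minus A172 was -0.29 (adjusted p = 0.0315), which did not pass with no filter (0.0544), with arrays centred on their medians (0.0784) or without any 1 of the A172 or T98G arrays (from 0.0738 to 0.159). U87MG minus A172 was 0.18 (adjusted p = 0.138), and passed only with a variance prior tied to expression (0.0248).

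CDK6 set U87MG apart. The control arrays read 9.35 in A172 and 9.60 in T98G, against 7.64 in U87MG, and the mimic arrays 9.14, 9.40 and 7.41. Both U87MG arrays lay below all 4 others. U87MG was lower than T98G by 3.93-fold (-1.97 log2, SE 0.09, adjusted p = 6.89e-06 in limma) and lower than A172 by 3.29-fold. T98G minus A172 was 0.26 (adjusted p = 0.0453). That small difference did not pass with no filter (0.0761), with quantile normalization repeated (0.135), with no transfection term (0.158) or without any 1 of the 6 arrays (from 0.0676 to 0.193).

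Among the inhibitors, CDKN2A, whose probe set is annotated to transcripts of both p16INK4A and p14ARF, was low in all lines. The A172 arrays read 4.93 (control) and 4.4 (mimic), the T98G arrays 4.33 and 4.6, and the U87MG arrays 4.20 and 4.43. The A172 control array stood clear of the 95th percentile of the olfactory receptor genes (4.41), and the 5 others lay close to it on either side. The lines overlapped and the F test did not call them (adjusted p = 0.308 in limma), although U87MG minus A172 was -0.74 (adjusted p = 0.00422) and T98G minus A172 -0.59 (adjusted p = 0.0122) without the A172 mimic array. Those values rest on the single high A172 control array, and without it the same differences were 0.04 and 0.19.

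CDKN2B (p15INK4B), which lies beside CDKN2A, was brightest in T98G. The T98G arrays read 5.96 (control) and 5.49 (mimic), the A172 arrays 4.93 and 5.15, and the U87MG arrays 4.81 and 4.79. Both T98G arrays lay above the others. They also lay above the means of all the olfactory receptor genes, while 98.8 to 99.7% of those means lay below the A172 and U87MG arrays. The A172 and U87MG values are thus close to the range of silent genes, and the folds given next depend on them. T98G exceeded U87MG by 1.89-fold (-0.92 log2 for U87MG minus T98G, SE 0.16, adjusted p = 0.00359 in limma) and A172 by 1.60-fold (adjusted p = 0.0118). The latter did not pass without the A172 control array (0.45 log2, adjusted p = 0.0813) or the T98G control array (0.40, adjusted p = 0.0547). Sequence shared by CDKN2A and CDKN2B could let their probes read each other, which was not tested.

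CDKN1B (p27KIP1) was lowest in A172. The A172 arrays read 6.33 with the control and 6.85 with the mimic, the T98G arrays 7.94 and 7.91, and the U87MG arrays 8.11 and 7.86. T98G and U87MG overlapped and differed by 0.06 (adjusted p = 0.812 in limma). U87MG exceeded A172 by 2.63-fold (adjusted p = 0.00075) and T98G exceeded A172 by 2.53-fold (adjusted p = 0.000967).

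RB1, the substrate of the kinases, was highest in A172, at 9.24 on the control array and 9.25 on the mimic array. T98G read 8.52 and 8.82, and U87MG 8.41 and 8.37. A172 exceeded U87MG by 1.81-fold (adjusted p = 0.000846 in limma) and T98G by 1.49-fold (adjusted p = 0.00525). U87MG and T98G did not differ past the threshold (-0.28, adjusted p = 0.0839), except when the dimmest 50% of genes were dropped (adjusted p = 0.0462), with a variance prior tied to expression (0.0226), and without the T98G control array (-0.44, 0.031).

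**Figure D2:**
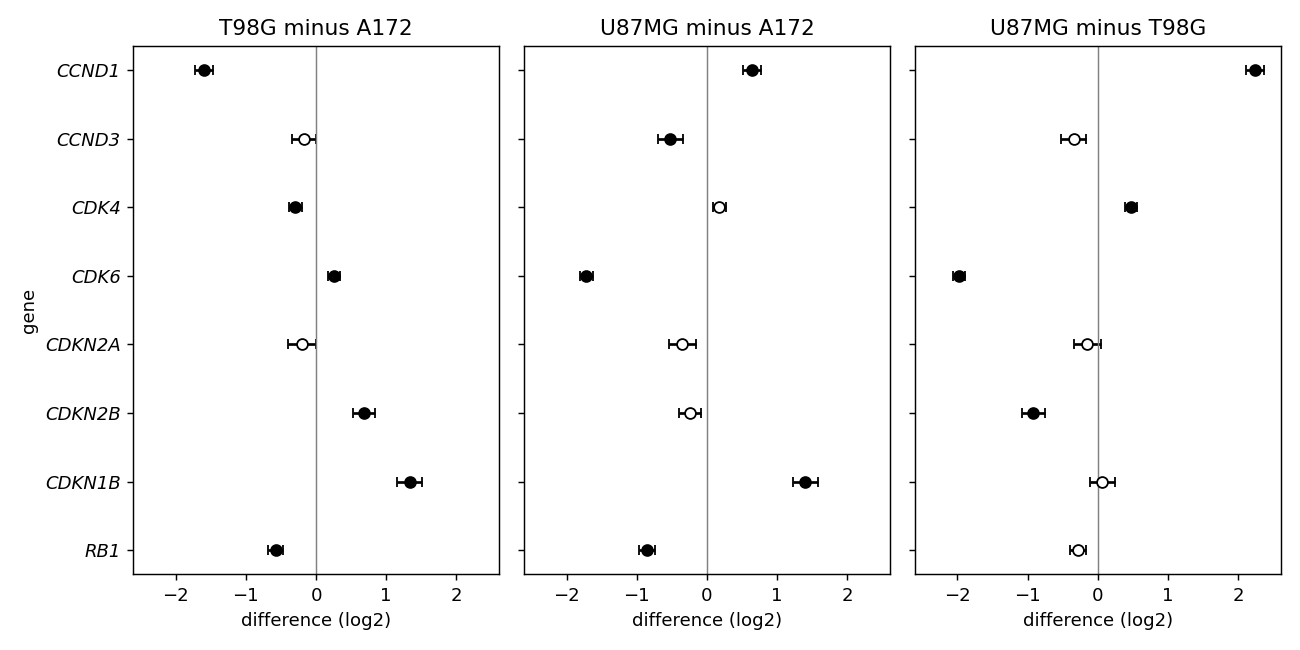
Differences between lines (log2) for the 8 tested genes, with 1 panel per pair of lines; points are limma estimates over 2 arrays a line, bars are the standard error, and filled points passed adjusted p under 0.05 over all genes. CCND1 and CDK6 lie farthest from 0 in U87MG minus T98G, at 2.24 and -1.97, and CDKN1B is on the right in both comparisons with A172.

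Counted over the pathway, the F test called 6 of the 8 tested genes (CCND1, CDK4, CDK6, CDKN2B, CDKN1B and RB1), against 67.5% of all tested genes. The pairs called 6 of 8 for T98G minus A172 (50.5% of all genes), 5 of 8 for U87MG minus A172 (54.2%) and 4 of 8 for U87MG minus T98G (47.1%). The count for T98G minus A172 stood above its share over all genes, and the other counts were near theirs. With 8 genes, none of these counts was tested. The median span between the highest and the lowest line mean was 0.89 over the 8 genes and 0.54 over all tested genes.

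The mimic was compared with the control within each line, with the line as an additive block in limma. No pathway gene passed the adjusted threshold, against 1.11% of all tested genes. At an unadjusted p under 0.05 there were 3 (CCND3, CDK6 and CCND1), against 1635 of 13812 genes. Over the 8 genes 4 differences were positive and 4 negative, with a median of 0.0047, against 0.0068 over all genes. RNA came from whole cultures, so a shift in the share of cells at 1 stage of the cell cycle and a change of RNA per cell cannot be told apart.

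CCND3 was the one gene whose mimic and control arrays did not overlap, which 2.96% of all tested genes showed. The difference was smallest in A172 (0.29), then T98G (0.72), and widest in U87MG (1.07), so it was positive in 3 of 3 lines but of unequal size. The mean was 0.69 ± 0.39 (SD, n = 3), or 1.62-fold, with a 95% interval from 0.35 to 1.04 and an adjusted p of 0.109 in limma (unadjusted 0.00228). The control mean was 8.07 and the mimic mean 8.76. CCND3 did pass when the dimmest 50% of genes were dropped (adjusted p = 0.031), with arrays centred on their medians (0.0368), with a variance prior tied to expression (0.00591) and without the A172 arrays (0.89, adjusted p = 0.0384). The 6 other alternatives did not call it. Among them were no filter (adjusted p = 0.186 in limma), no T98G arrays (0.68, adjusted p = 0.166) and no U87MG arrays (0.50, adjusted p = 0.345). Whether the lines differed in their response was not tested, as each has 1 pair of arrays.

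CDK6 had the most even difference. It was -0.21 in A172, -0.20 in T98G and -0.24 in U87MG, a mean of -0.22 ± 0.02 (SD, n = 3) with an adjusted p of 0.294 in limma. The lowest adjusted p over 10 alternatives was 0.0757. CCND1 was at -0.38 in A172 and -0.47 in T98G but at -0.04 in U87MG, the line where it was brightest. Its mean was -0.30 ± 0.23 (SD, n = 3; adjusted p = 0.317 in limma), and its lowest adjusted p over the alternatives was 0.0594.

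**Figure D3:**
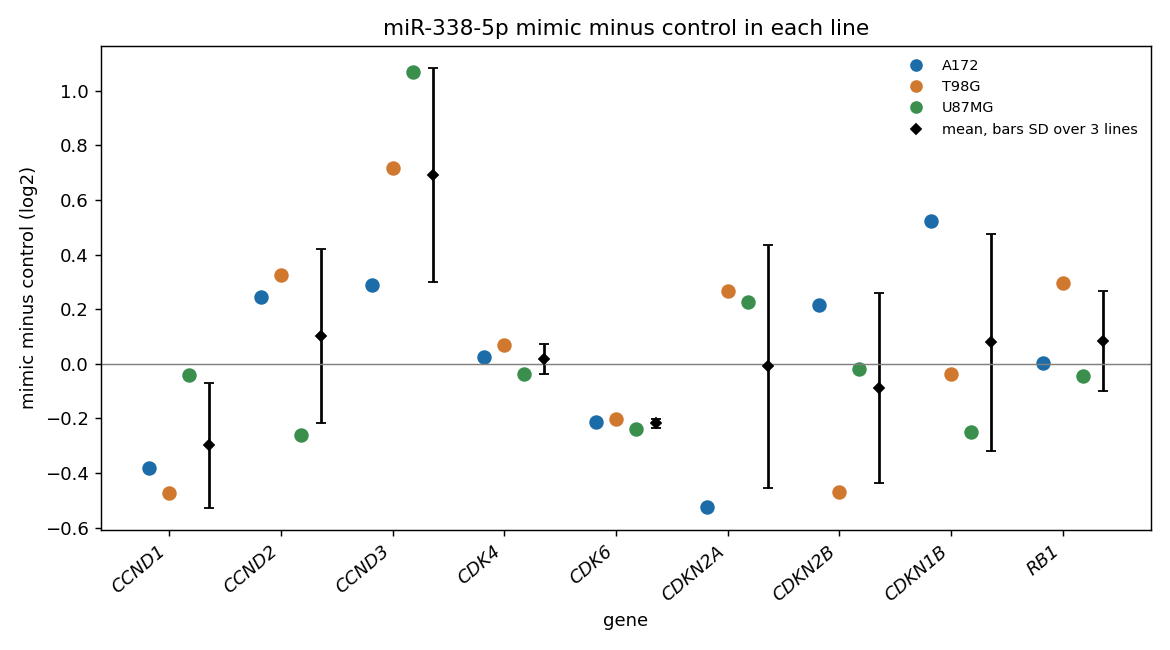
Mimic minus control (log2) in A172, T98G and U87MG for the 9 measured genes; coloured points are single lines, and black diamonds with bars are the mean and SD over the 3 lines. All 3 points lie above 0 for CCND3, from 0.29 to 1.07, and below 0 for CDK6 and CCND1, while the points of CDKN2A, CDKN2B and CDKN1B fall on both sides.

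The remaining genes showed no common direction. CDK4 differed by 0.02 ± 0.05 (SD, n = 3), with a 95% interval from -0.15 to 0.19. RB1 differed by 0.08 ± 0.18, from 0.29 in T98G to -0.04 in U87MG. CDKN2A was at -0.52 in A172 and at 0.27 and 0.23 in T98G and U87MG, and its mean of -0.01 ± 0.45 hides this. CDKN2B was at 0.22 in A172 and -0.47 in T98G, and CDKN1B at 0.52 in A172 and -0.25 in U87MG. Their means were -0.09 ± 0.35 and 0.08 ± 0.40. The 95% intervals were -0.40 to 0.23 for CDKN2B and -0.27 to 0.43 for CDKN1B, which include changes in either direction. CCND2, below the filter, differed by 0.25, 0.33 and -0.26 in A172, T98G and U87MG.

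The rest of the pathway gave no gene past the threshold in the mimic comparison either. Counts of positive genes and medians in these lists stand beside 7232 positive of 13812 tested genes and a median of 0.0068 over all of them. No list was tested as a set. Of 9 further cyclins and kinases of G1/S, 7 were positive (median 0.05), and those of smallest p were CCNA2 at 0.21, CDC25A, a phosphatase that activates CDK2, at 0.22 and CCNE2 at 0.16 (adjusted p from 0.341 to 0.457 in limma). Of 10 other inhibitors and turnover factors 5 were positive (median 0.0012). GSK3B, a kinase that marks cyclin D1 for export and degradation, was at -0.32 ± 0.11 and lower in 3 of 3 lines (adjusted p = 0.159), CDKN1C (p57) was at -0.21 and FBXW7, a ubiquitin ligase subunit for cyclin E, at 0.22. Of 17 pocket proteins, E2F factors and MuvB subunits 14 were positive (median 0.11, against 0.0068 over all genes), led by E2F2 at 0.26, E2F8 at 0.26 and the RB1 relative RBL1 at 0.16 (adjusted p from 0.319 to 0.475). Of 16 measured E2F target genes 12 were positive (median 0.07), with POLA1 at 0.19, MCM2 at 0.17 and MCM6 at 0.14. The F test over lines called 8 of 9, 9 of 10, 14 of 17 and 13 of 16 genes in these lists, in the order given, against 67.5% of all tested genes.

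Genes that lie next to the members were then read for the levels of the lines at the same place in the genome. Each side was searched for the 5 nearest protein-coding genes in the RefSeq table. Of these neighbours, higher and lower are written only where a difference passed the adjusted threshold in limma, and counts are to be read against the shares of all tested genes that passed it: 67.5% in the F test, 50.5% for T98G minus A172, 54.2% for U87MG minus A172 and 47.1% for U87MG minus T98G. Beside CDKN2A, MTAP, a methionine salvage enzyme, read 3.61 and 3.34 on the control and mimic arrays of A172 and 3.32 and 3.0 in U87MG, but 5.47 and 5.58 in T98G. Both T98G arrays stood above all others. The A172 and U87MG values lie inside the range of the olfactory receptor genes (median 2.97, 95th percentile 4.41), so no fold is given. MTAP was below the filter and so outside the tests of the main fit. As it was picked after its values were seen, no test of it is given. T98G is also the line with the most CDKN2B, while CDKN2A did not differ past the threshold there. On the other side DMRTA1, ELAVL2 and TUSC1 were higher in A172 than in T98G and U87MG, with DMRTA1 at -0.53 in either difference, and CAAP1 was higher in A172 than in U87MG. The interferon genes IFNA2, IFNA8 and IFNE were below the filter.

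Beside CDKN2C, which itself has no value here, FAF1, a FAS-associated factor that lies next to it, showed a far wider gap between lines. It read 8.34 and 8.39 in A172, 3.14 and 3.05 in T98G, and 3.22 and 3.05 in U87MG. All T98G and U87MG values lay below the filter level and near the olfactory receptor median, and FAF1 passed the filter through A172 alone, so its values are a description with no fold and no test. Of the other 5 tested neighbours, the F test called 3, all on the other side of CDKN2C. TTC39A was lower than in A172 both in T98G (-0.82) and in U87MG (-0.43), the same direction as FAF1. RNF11 and OSBPL9 were higher in T98G than in A172 (0.25 and 0.41) and than in U87MG. DMRTA2 and EPS15 were not called. These neighbours of CDKN2C were picked after their values were seen.

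**Figure D4:**
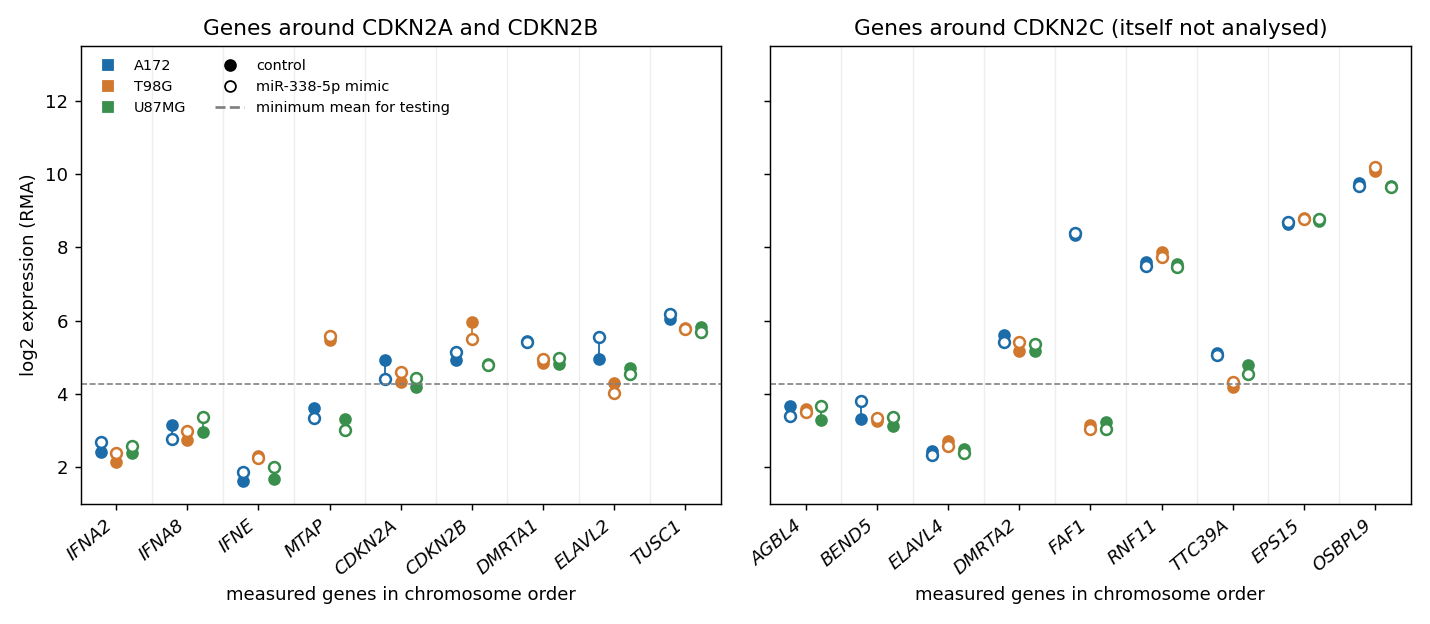
Log2 expression (RMA) on each array of the measured genes around CDKN2A and CDKN2B (left) and around CDKN2C (right), in chromosome order but not to scale; filled points are control, open points mimic, colours are lines, and the dashed line is the minimum mean of 4.28. MTAP is above the dashed line in T98G alone, and FAF1 in A172 alone, at 8.34 and 8.39.

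At the other loci the neighbours shared the pattern of the member only in part. Around CDK6, lowest in U87MG, 5 neighbours were tested and called by the F test: GATAD1, RBM48, SAMD9, SAMD9L and VPS50. All were at lower values in U87MG than in T98G, from -0.30 in VPS50 to -1.31 in SAMD9L, against -1.97 in CDK6, and all but SAMD9 passed the threshold (-0.45, adjusted p = 0.0641 in limma). Only SAMD9 and SAMD9L were lower than in A172, and VPS50 was higher. Around CDKN1B, lowest in A172, 6 of 8 tested neighbours were higher in U87MG than in A172 (MANSC1, BORCS5, CREBL2, GPR19, APOLD1 and HEBP1) and 1, GPRC5A, was lower. In T98G 3 of them (BORCS5, APOLD1 and HEBP1) were higher than in A172, and GPRC5A was at -0.38 and just missed the threshold (adjusted p = 0.0507 in limma). MANSC1 had means of 4.32 in A172 and 4.20 in T98G, around the filter level of 4.28, and passed the filter through U87MG (5.28). Its place in the count therefore rests on the line where it is high and is a description only.

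Around CCND1, MRGPRF, MYEOV and LTO1 were higher in U87MG than in T98G, by 0.62, 0.46 and 0.54, against 2.24 for CCND1 itself, and FGF3 was lower (-0.30). None of the 7 differed past the threshold between T98G and A172, where CCND1 differed by -1.60. Around CDK4, of 10 tested neighbours TSPAN31 was higher in U87MG than in T98G by 0.51, as CDK4 was by 0.47, while B4GALNT1 (-1.18) and EEF1AKMT3 (-0.30) were lower. ARHGEF25, METTL1 and TSFM also differed between lines. Around RB1, SUCLA2, MED4 and RCBTB2 were higher in T98G than in A172, the opposite of RB1, and ITM2B and SUCLA2 were lower in U87MG than in A172, as RB1 was. GPRC5A and FGF3 were picked after their values were seen. None of the tested neighbours of the 10 genes passed the threshold in the mimic comparison.

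The genes whose log2 values followed a member most closely over the 6 arrays were sought among tested genes with line means spanning at least 1 unit. The arrays come in pairs from 3 lines, so a high r says little more than that the lines stand in the same order. CCND1 was followed by FIGN and RND3 (r = 0.996 and 0.993 over 6 arrays), CDK6 by CAP2 and SLC23A2 (0.998 and 0.997) and CDK4 by RNF182 and RASEF (1.00 and 0.999). CDKN2B was followed by APOBEC3F and EID3 (0.989 and 0.978), CDKN1B by TYW3 and TATDN1 (0.992 and 0.991) and RB1 by MARVELD1 and IL1RAPL1 (0.992 and 0.989). Between 41 genes for CDKN2B and 213 for CDK4 reached an r of 0.95.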

How the data were processed

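The deposited table holds log2 values for 33297 probe sets on 6 arrays, made by the authors with RMA (oligo, R 3.0.1) per the submitters' processing notes. Filters are not stated in those notes. RMA sets the probes of all arrays to 1 distribution, which would take out most of a shift shared by most genes.

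The deposited log2 values were used as they stood. Probe sets with 1 symbol (19460, of which 19429 matched the RefSeq table of GRCh38.p14 by gene identifier) were kept, and the 1754 with several symbols and 12083 with none were left out. The brightest probe set stood for a gene, and the lowest 25% of genes by mean were left out, which left 13812. Tests were limma 3.58.1 in R 4.3.3 (lmFit, eBayes, two-sided, Benjamini-Hochberg over all genes, threshold 0.05). The mimic fit had the line as a block (2 residual degrees of freedom, 6.56 with the prior), and the line fit had the transfection as a term. The line pairs the arrays by the labels, and deviations from the group means correlated at r from 0.951 to 0.958 within a line. The scripts were tested on simulated data. No array group held 4 samples, so single arrays were not tested as outliers. Olfactory receptor genes served as a guide to silent genes.

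Members, lists and tests were chosen with earlier results of these data known. Named besides the members were the genes of smallest p in each pathway list, neighbours called by the F test around members called there, and the 2 genes most like each such member. Alternatives changed the filter, centring, normalization, probe set rule, variance prior, model terms and arrays.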

Additional observations from a re-analysis of the deposited data

Results flagged for a closer look

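In 4 genes the mimic minus control difference was at least 0.2 log2 units upward in 1 line and at least as far downward in another. With 1 pair of arrays a line, none of these differences between lines was tested. CDKN1B was at 0.52 in A172 and -0.25 in U87MG. CDKN2A was at 0.27 in T98G and -0.52 in A172. CDKN2B was at 0.22 in A172 and -0.47 in T98G. CCND2 was at 0.33 in T98G and -0.26 in U87MG. CDKN2A and CCND2 read between 3.91 and 4.93 on all 6 arrays, close to the minimum mean of 4.28.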

How the results depend on the processing

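The mimic comparison called 153 genes, and 60 with no filter, 360 with the lower 50% left out, 236 with arrays centred on their medians, 471 with a variance prior tied to expression, and 0 when the line was dropped as a block, which ignores the pairing of the arrays (127 at an unadjusted p under 0.05 in limma). Leaving out 1 line gave 0 to 117 calls, 0 of them without U87MG (1339 at an unadjusted p) and 64 without A172. Of the 8 tested members 0 were called (3 at an unadjusted p), and 1, CCND3, in each of 3 alternatives (the lower 50% left out, centring, the variance prior) and in 0 to 1 of the fits without a line. CDKN2A ranged from -0.15 to 0.25 over these fits, CDKN1B from -0.14 to 0.24, CDKN2B from -0.24 to 0.10, CDK4 from -0.0065 to 0.048 and RB1 from -0.021 to 0.15. The line comparison called 9321 genes and 6 members, and from 8011 to 8982 genes and 6 to 8 members without 1 array. Single arrays turned the sign of uncalled differences: T98G minus A172 ranged from -0.48 to 0.13 in CCND3 and from -0.59 to 0.19 in CDKN2A, U87MG minus A172 from -0.74 to 0.035 in CDKN2A, and U87MG minus T98G from -0.19 to 0.31 in CDKN1B and from -0.36 to 0.058 in CDKN2A. The number of arrays limits the precision, and no cause of these shifts was tested.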
